A study of Homo sapiens with 10 samples.

Results

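The decoding region of human 18S ribosomal RNA (rRNA) was taken as the 3′-terminal stretch of the molecule, from base 1640 to the last base, 1869. Its members are defined by position and not by a count, though the region was picked with earlier results of these data known. It held 230 of the 6939 base positions listed for 18S and 28S rRNA. It contained 4 of the 40 sites of 2′-O-methylation annotated in 18S, namely U1668, A1678, C1703 and U1804, and 226 positions without an annotation. Ribose oxidation sequencing (RibOxi-seq) had been applied to total RNA of PA1 cells, a line derived from a human ovarian teratoma. In this method RNA is cut at random with Benzonase nuclease, the 3′-terminal nucleotides are removed by a round of periodate oxidation and β-elimination so that methylated riboses come to lie at 3′-ends, and the pool is then oxidized again with periodate. An unmethylated 3′-end loses its reactivity to the linker in this last step and a methylated one keeps it, so that oxidized libraries hold mostly fragments that end at a methylated ribose. By the study's methods, control RNA was set aside after fragmentation and joined again at linker ligation, so that it passed through neither oxidation nor β-elimination and its ends are those left by fragmentation. Each deposited value is a count assigned to a base for sense alignments whose 3′-end lies there.

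The NextSeq libraries were 3 control libraries (control replicates 1, 2 and 3) and 3 oxidized libraries (oxidized replicates 1, 2 and 3), with cells at passage 6 for replicates 1 and 2 of each group and at passage 4 for replicate 3. A pilot with a small amount of RNA, sequenced on the MiSeq, comprised 2 control and 2 oxidized libraries of cells at passage 7. Nothing in the labels says whether replicates of 1 passage were separate cultures, so all P-values below measure the spread between these libraries, which may be technical. Sequencer, passage and amount of RNA changed together between the pilot and the NextSeq experiment and cannot be told apart.

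Total counts over 18S and 28S were 72458614 to 80964624 in the NextSeq control libraries, 12293410 to 13694386 in the NextSeq oxidized libraries, 30392418 and 44061905 in the MiSeq control libraries and 1353768 and 1568883 in the MiSeq oxidized libraries. Low counts gathered at exactly 50 and exactly 2 and none in the region lay between 40 and 49, and the totals of the MiSeq controls exceeded the sequencing output that the study states for that experiment. A count is therefore not a read or a fragment, and the scale of the values is not given in the sources used here. Counting intervals cover counting error only, take each count as independent and are thus too narrow. Taking 50 counts as 1 step, replicate pairs were compared over all positions with at least 10 steps in the pair. NextSeq control replicate 3 stood apart, with chi-square values per degree of freedom of 202 and 215 against control replicates 1 and 2, which differed by 1.12 from each other. Oxidized replicate 1 differed from oxidized replicates 2 and 3 by 11.6 and 11.1, and these by 1.15 from each other. The MiSeq control libraries differed by 3.64 and the oxidized ones by 1.05. All were kept as separate libraries, and results that rest on control replicate 3 are given with and without it.

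The region belongs to the small ribosomal subunit and includes its longest helix near the 3′-end, whose upper part forms the decoding centre, where the codon of the messenger RNA meets the anticodon of the transfer RNA. It ends in a small hairpin with a pair of adenosines that are dimethylated at the base, followed by the 3′-tail. Ribose methylation of rRNA is carried out by fibrillarin in box C/D small nucleolar RNA (snoRNA) particles. The snoRNA pairs with the rRNA, and the nucleotide that receives the methyl group is the one paired with the fifth nucleotide upstream of a short box called D or D′.

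The sequence of the region is printed with the 4 annotated sites in capitals, because every value below is a count at one of these bases. It was read from GRCh37 (hg19), where 18S lies at positions 109078 to 110946 of the unplaced contig GL000220.1 on the plus strand. The region occurs in 2 identical copies on that contig, at 110717 to 110946 and at 154689 to 154918, and fragments from either copy cannot be separated. In GRCh37, 40 of the 40 annotated 18S sites have the listed base.
18S 1640 to 1869: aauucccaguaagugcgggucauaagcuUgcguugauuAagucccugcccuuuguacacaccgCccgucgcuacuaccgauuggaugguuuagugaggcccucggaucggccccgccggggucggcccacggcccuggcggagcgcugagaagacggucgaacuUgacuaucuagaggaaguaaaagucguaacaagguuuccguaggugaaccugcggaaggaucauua

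A snoRNA is listed for 3 of the 4 sites, and its stretch complementary to the rRNA is shown beside the rRNA because it separates these sites from U1668, for which the guide is listed as unknown. In each pair of lines the capital in the rRNA is the annotated site and the capital in the snoRNA is the base opposite to it.
SNORD82 (U82): agggacuUaau
18S 1675 to 1685: auuAagucccu
SNORD43 (U43): gacggGcgg
18S 1700 to 1708: ccgCccguc
SNORD20 (U20): uuccucuagauagucAaguuc
18S 1799 to 1819: gaacuUgacuaucuagaggaa
SNORD82 lies at chr2:232325082-232325151 and SNORD20 at chr2:232321155-232321234, both on the minus strand and in introns of NCL, the gene of the nucleolar protein nucleolin. SNORD43 lies at chr22:39715055-39715118, on the minus strand in an intron of RPL3, which encodes a protein of the large subunit. Without a mismatch or a G-U pair, A1678 lies in 11 pairs, C1703 in 9 and U1804 in 21. In all 3 snoRNAs the base opposite to the site is number 5 upstream of the box, which reads CUGA in SNORD82 and SNORD20 and CAGA in SNORD43. The match is a description of the sequences and was not tested against other positions.

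U1804, guided by SNORD20, held more counts than any other position of 18S and 28S in each NextSeq oxidized library. The oxidized counts were 3866945, 3692634 and 4055041 and the control counts 15491, 20187 and 8987, each in the order of replicates 1, 2 and 3. Per library this is 29.6% ± 0.413 (SD, n = 3) of all oxidized counts and 0.0194% ± 0.00674 (SD, n = 3) of all control counts. The groups did not overlap. The log2 fold change was 14.39 (SE, standard error, 0.85; edgeR quasi-likelihood adjusted P = 0.000601, by Benjamini and Hochberg's method over the 6718 positions tested).

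A1678, guided by SNORD82, had 38944, 42647 and 48297 oxidized counts, by replicate, and 206, 214 and 1526 control counts. The oxidized level was 3313 ± 322 counts per 1000000 of the library (CPM, SD, n = 3), and the control level 8.57 ± 10.1 CPM (SD, n = 3). Most of the control counts came from control replicate 3, and the lowest oxidized level was still far above it. The log2 fold change was 12.95 (SE 1.08, edgeR quasi-likelihood adjusted P = 0.00169).

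C1703, guided by SNORD43, had 17147, 28003 and 31260 oxidized counts, by replicate, and 318, 323 and 2212 control counts. The oxidized level was 1952 ± 569 CPM (SD, n = 3), and the control level 12.6 ± 14.5 CPM (SD, n = 3). Oxidized replicate 1 was the lowest of its group and control replicate 3 the highest of its own, with no overlap between the groups. The log2 fold change was 11.62 (SE 1.07, edgeR quasi-likelihood adjusted P = 0.00264).

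At U1668, the site without a listed guide, the direction was the opposite. It had 2, 52 and 6 oxidized counts, by replicate, and 7379, 7858 and 12516 control counts, a level of 1.61 ± 2.28 CPM (SD, n = 3) against 122 ± 38.4 CPM (SD, n = 3). Every control library was above every oxidized library. The log2 fold change of -2.28 (SE 1.31) did not pass the test, with an adjusted P of 0.252 in that edgeR test, and passed without oxidized replicate 2, at -4.63 (adjusted P = 0.0458, same edgeR test). With library totals as the only scaling it passed as well, at -6.24 (edgeR adjusted P = 0.0168). It lay at the median of all 6718 positions, which was -2.25. U1668 thus had the log2 fold change of a typical position of both rRNAs, and it stood last of the 40 annotated 18S sites. Over the unannotated positions of the region the median was higher, at -1.18. The study itself lists U1668 as annotated but not detected. It reports no stop at U1668 by primer extension at low nucleotide concentration. It adds that another sequencing method, Ribometh-seq, did not detect this site in HeLa cells.

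**Figure D1:**
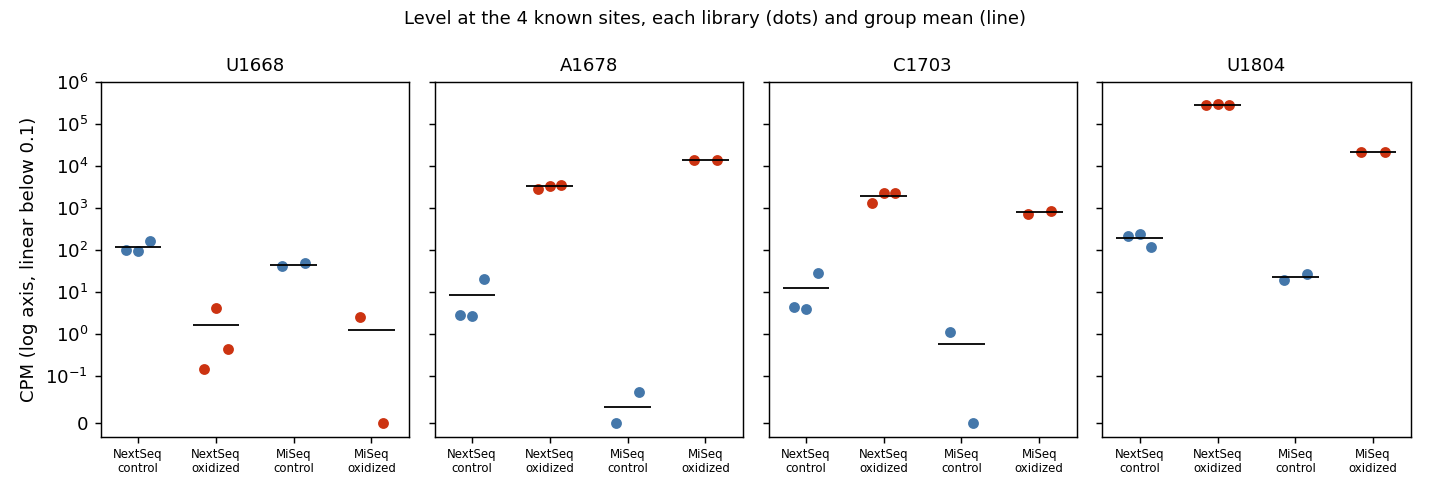
Level at U1668, A1678, C1703 and U1804 in CPM (log axis, linear below 0.1) for each library (dots) with the group mean (line), for NextSeq and MiSeq control and oxidized libraries. At A1678, C1703 and U1804 all oxidized libraries lie above all control libraries of their experiment, and at U1668 all lie below.

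The fold changes depend on how libraries are scaled, because the annotated sites of both rRNAs took 94.8% to 95.2% of the NextSeq oxidized counts and 0.359% to 0.732% of the control counts. The normalization used here, edgeR's trimmed mean of M-values, put the median log2 fold change of all positions at -2.25, and library totals alone put it at -6.26. Measured from the median of all positions, U1804 was at 16.64 with the first scaling and at 16.84 with the second, A1678 at 15.19 and 14.86, and C1703 at 13.86 and 13.54. U1668 was at -0.04 and 0.02. The order of the 4 sites was the same under both scalings. A change of scaling moves all positions by nearly the same amount, so this agreement follows from the measure and is no separate check.

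A comparison within a library needs no scaling, so each site was also set against the median count of the 10 unannotated positions on either side. At U1804 the oxidized count was 14510, 19747 and 17074 times this median in oxidized replicates 1, 2 and 3. The mean, 17110 ± 2618 (SD, n = 3), was above that of all 32 other 18S sites for which the ratio exists in these libraries, among which the median was 1090 and the highest value 13021. Sites whose flanking median holds no count in any 1 of these libraries have no ratio. They are left out of the ranking and could stand higher. C1703 had 8574, 1077 and 15630 in oxidized replicates 1, 2 and 3, a wide spread that comes from flanking medians of 2, 26 and 2 counts. A1678 had 506, 853 and 929, and its mean was above that of 12 of the 32 others. At U1668 the ratio was 0.0189, 0.963 and 0.0566, so that it did not exceed this flanking median in any oxidized library. In oxidized replicate 2, where U1668 had 52 counts, this turned on the flank. The ratio there was 1.82 with 5 positions on either side and 1.04 with 20.

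According to the study's methods Benzonase does not cut behind a methylated ribose. The same ratio was therefore taken in the control libraries, where a value under 1 is called a gap. It was not taken at unannotated positions, so a value under 1 does not by itself set a methylated base apart. A1678 had a control gap of 0.028, 0.026 and 0.0944 of the flanking median in NextSeq control replicates 1, 2 and 3. The gap was shallower at C1703, with 0.398, 0.339 and 0.592, and at U1804, with 0.387, 0.47 and 0.467. At U1668 it was 0.707, 0.719 and 0.607, higher in every control library than at the 3 guided sites. The median over the other 36 annotated 18S sites was 0.183, and 34 of them lay below U1668. For U1804 the value turned on the flank, since the mean of 0.441 became 0.322 with 5 positions on either side and 1.24 with 20. Unannotated bases beside it could also be low. In control replicate 1, A1800 had 3696 and U1812 1293 counts, under the 15491 of U1804, while the flanking median was 39991.

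The MiSeq pilot gave the same direction at the 4 sites. U1804 had 34759 and 29791 counts in the oxidized and 878 and 820 in the control libraries, with a log2 fold change of 10.14 (SE 0.31, edgeR quasi-likelihood adjusted P = 0.00555). A1678 had 22037 and 19354 oxidized counts and 0 and 2 control counts. Its fitted log2 fold change of 18.90 (SE 1.26, edgeR quasi-likelihood adjusted P = 0.00693) leans on 2 control counts, and the ratio of summed shares was 527216 with an exact 95% counting interval from 145939 to 4353540. Taken as independent events, the count of 0 in MiSeq control replicate 1 allows up to 3 counts, or 0.0681 CPM. That limit is too low where counts come in steps of 50. C1703 had 1164 and 1148 oxidized and 50 and 0 control counts, with a log2 fold change of 10.60 (SE 2.38, edgeR quasi-likelihood adjusted P = 0.0237). This value also leans on 1 control library, since it was 16.41 without MiSeq control replicate 1, which holds the 50 counts, and 9.63 without MiSeq control replicate 2.

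U1668 had 4 and 0 counts in the MiSeq oxidized and 1846 and 1488 in the control libraries, and a log2 fold change of -4.85 (SE 1.36, edgeR quasi-likelihood adjusted P = 0.0423). It was therefore lower in oxidized libraries by the test, as were 51.6% of the 6661 positions tested in that experiment, whose median was -4.76 (-4.98 with library totals alone). Over the unannotated positions of the region the median was -2.35. In the oxidized MiSeq libraries U1668 stood at 0.0348 and 0 times its flanking median. The call was lost without MiSeq control replicate 1 (adjusted P = 0.33) or 2 (adjusted P = 0.325, both in edgeR). It was also lost with counts divided by 50 (edgeR adjusted P = 0.0626) and with the totals of unannotated positions as library size (edgeR adjusted P = 0.0772), and without MiSeq oxidized replicate 1 the value was -13.15. In the MiSeq controls U1668 stood at 1.24 and 1.17 times its flanking median, above all 35 other 18S sites with a value. A1678 stood at 0 and 0.00304 and U1804 at 0.0445 and 0.0503. C1703 stood at 0.794 and 0, from 50 and 0 counts, and 32 of 35 other sites had a lower mean than its 0.397.

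The sites did not keep their proportions between the experiments. In the NextSeq oxidized libraries U1804 had 99.3, 86.6 and 84.0 times the counts of A1678, and in the MiSeq oxidized libraries 1.58 and 1.54 times. This ratio within a library was thus 57.7 times higher on average in the NextSeq experiment, with no overlap between the experiments. A1678 had 2.27, 1.52 and 1.55 times the counts of C1703 in the NextSeq and 18.9 and 16.9 times in the MiSeq oxidized libraries. U1804 had 226, 132 and 130 times the counts of C1703 against 29.9 and 26.0 times. For each of the 3 ratios the exact two-sided permutation test gave p = 0.2, which is the lowest possible with 3 libraries against 2, and adjustment over the 3 ratios left it at 0.2. The share of U1804 was 29.6% of the NextSeq and 2.21% ± 0.0106 (SD, n = 2) of the MiSeq oxidized counts. That of A1678 was 0.331% ± 0.0322 (SD, n = 3) and 1.42% ± 0.0177 (SD, n = 2).

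Tested as a difference of log2 fold changes over all 10 libraries, MiSeq minus NextSeq, A1678 was at 6.34 (SE 1.35, adjusted P = 0.0254) and U1804 at -3.76 (SE 0.82, adjusted P = 0.0266), both in edgeR. C1703 was at -0.67 (SE 1.80, adjusted P = 0.9998) and U1668 at -2.17 (SE 2.12, adjusted P = 0.612), with the same test. With library totals as the only scaling, U1804 was at -0.70 and did not pass (edgeR quasi-likelihood adjusted P = 0.464), while A1678 was at 10.10. A1678 passed without NextSeq control replicate 3, at 5.51, and lost its call without any 1 of the other 9 libraries, where it was between 5.32 and 9.29. U1804 lost its call without NextSeq control replicate 1 or any 1 of the 4 MiSeq libraries, at -3.61 to -3.95. Neither A1678 nor U1804 passed with counts divided by 50, at 3.83 and -3.55 (edgeR adjusted P = 0.143 and 0.0591). In the whole region 19 positions had a higher and 12 a lower log2 fold change in the MiSeq experiment, or 8.26% and 5.22% of 230. Over all positions these shares were 4.55% and 3.65%. The sum of 31 positions fell to 0 without either MiSeq control library, to 10 and 18 without MiSeq oxidized replicate 1 and 2, and to 2 and 4 without NextSeq control replicate 1 and 2.

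**Figure D2:**
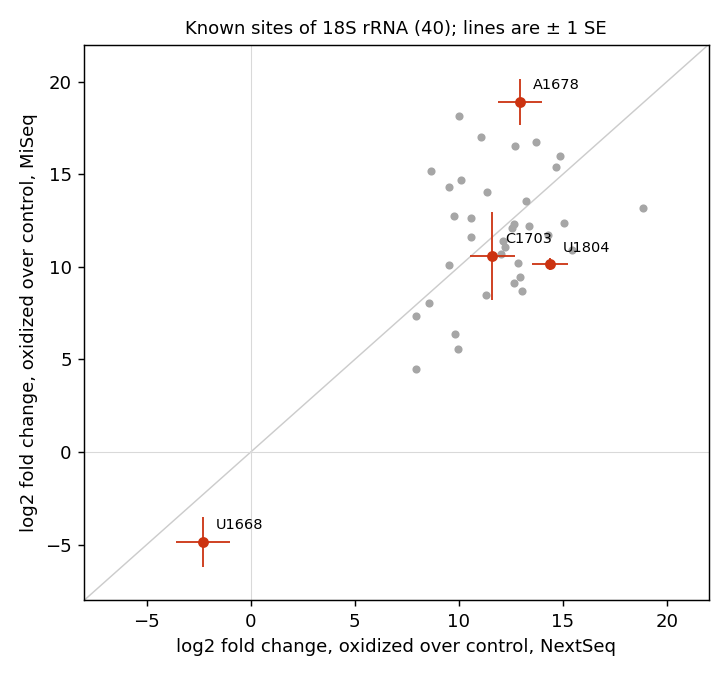
Log2 fold change, oxidized over control, of the 40 annotated sites of 18S in the NextSeq (x axis) and the MiSeq experiment (y axis), with the line of equal values. The 4 sites of the region are in red with ± 1 standard error, the 36 others in grey. U1668 lies apart from the other 39 at negative values in both experiments, A1678 lies above the line and U1804 below it.

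The 4 sites together made up 98.3% ± 0.0385 (SD, n = 3) of the counts of the region in NextSeq oxidized and 75.8% ± 0.109 (SD, n = 2) in MiSeq oxidized libraries. In the control libraries they made up 0.778% ± 0.348 (SD, n = 3) and 0.392% ± 0.00614 (SD, n = 2). The region as a whole took 30.2%, 31.1% and 30.7% of the counts of NextSeq oxidized replicates 1, 2 and 3, and 5.83%, 5.86% and 2.84% of those of control replicates 1, 2 and 3. The difference was 25.8 percentage points (two-sided exact permutation p = 0.1, which is the lowest possible with 3 libraries against 3). Without the annotated sites of both rRNAs, the region took 10.3% ± 0.421 (SD, n = 3) of the remaining oxidized counts and 4.83% ± 1.74 (SD, n = 3) of the remaining control counts. The bases from 1792 to 1811, around U1804, held 78.4%, 77.1% and 78.6% of the region's unannotated counts in oxidized replicates 1, 2 and 3. They held 54.9% and 54.2% in control replicates 1 and 2, and the highest 20-base window of control replicate 3 held 18.7%. In the MiSeq libraries the region took 4.87% and 4.90% of the oxidized and 1.62% and 1.92% of the control counts (two-sided exact permutation p = 0.333, which is the lowest possible with 2 libraries against 2).

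**Figure D3:**
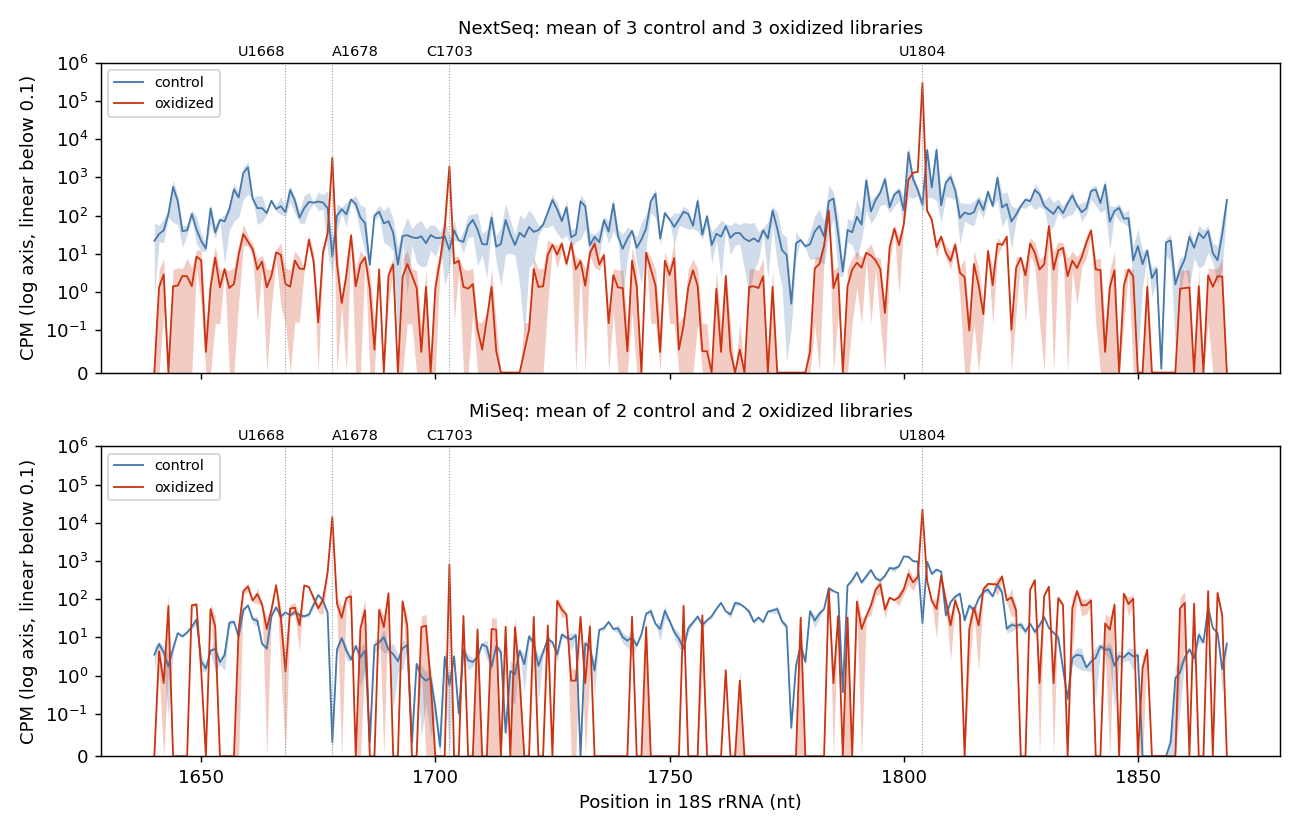
Mean CPM per base of the region (log axis, linear below 0.1) in control and oxidized libraries of the NextSeq (top) and MiSeq (bottom) experiments, with the range over libraries shaded. Dotted lines mark the 4 annotated sites. Oxidized libraries peak at A1678, C1703 and U1804, while U1668 has no peak, and control libraries are highest around U1804.

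At an adjusted P-value under 0.05, 10 of 230 positions (4.35%) were higher in NextSeq oxidized libraries, against 3.02% of all 6718 positions. Besides A1678, C1703 and U1804 these were 7 unannotated positions. A log2 fold change above 7 in addition kept the 3 annotated sites and none of the others, or 1.30% of the region against 1.53% of all positions. The study used this fold threshold with a stricter limit on the adjusted P-value from another test, that of DESeq2. It lists the 3 sites as detected. None of the 3 would meet that limit in the edgeR test used here, whose P-values are not those of DESeq2. At 5 positions (2.17%, against 1.65% of all) every oxidized library had a higher CPM than every control library, namely the 3 sites with C1802 and U1803.

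Of the 7 unannotated positions, 4 lay just upstream of a guided site. U1803, directly before U1804, had 19038, 17489 and 18282 oxidized and 39816, 42680 and 24736 control counts, a log2 fold change of 5.42 (SE 0.72, edgeR quasi-likelihood adjusted P = 0.0153). C1802 had 17139, 15787 and 18551 oxidized and 89136, 95492 and 21238 control counts, a log2 fold change of 4.29 (SE 0.92, edgeR quasi-likelihood adjusted P = 0.0359). A1800 had a log2 fold change of 3.07 and G1702, directly before C1703, one of 5.34, with adjusted P-values of 0.0403 and 0.0436 from the same edgeR test. At U1803 and C1802 the lowest oxidized CPM exceeded the highest control CPM, which did not hold at A1800 and G1702. With library totals as the only scaling, U1803 was still higher (log2 fold change 1.58, edgeR quasi-likelihood adjusted P = 0.0463), C1802 and G1702 were at 0.55 and 0.85 without passing, and A1800 turned to -1.26. Without control replicate 1, the adjusted P-values of C1802, A1800 and G1702 were 0.0775, 0.134 and 0.105 in the same edgeR test.

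The remaining 3 lay away from the sites. U1733 had 156, 106 and 150 oxidized and 622, 590 and 2583 control counts, U1729 had 214, 306 and 210 and 1057, 1898 and 3216, and A1831 had 578, 716 and 778 and 2707, 3907 and 24912. Their log2 fold changes of 3.57, 3.56 and 2.97 passed with edgeR adjusted P-values of 0.0371, 0.0359 and 0.0493. All 3 turned negative with library totals alone, at -0.68, -0.52 and -1.39. Measured from the median of all positions, where a change of scaling largely cancels, they were between 5.22 and 5.82 with the first scaling. With the second they were between 4.87 and 5.75. None of the 3 passed without control replicate 1 or without control replicate 2.

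Control replicate 3 bears on these calls. Leaving it out raised the number of higher positions in the region from 10 to 21, whereas leaving out control replicate 1 or 2 lowered it to 4 and 5 and leaving out oxidized replicate 3 to 6. A1678, C1703, U1804 and U1803 passed in the fit without control replicate 3 and under all other alternatives run for the NextSeq libraries.

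The bases around U1804 formed a graded slope on the 5′ side. U1803, C1802 and A1801 had 0.472% ± 0.0208, 0.443% ± 0.015 and 0.293% ± 0.0176 (SD, n = 3) of the counts at U1804 in NextSeq oxidized libraries. On the 3′ side G1805, A1806 and C1807 had 0.0451% ± 0.00439, 0.0258% ± 0.00434 and 0.00503% ± 0.00243 (SD, n = 3). The upstream base thus had about 10 times the counts of the downstream base, in 3 of 3 oxidized libraries. The small shares are large in counts, and 7 of the 10 unannotated positions of the region with most oxidized NextSeq counts were A1800 to U1803, G1805, A1806 and G1702.

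At A1678 and C1703 the upstream neighbour was also above the downstream one in 3 of 3 NextSeq oxidized libraries. U1677 had 1.06% ± 0.282 and A1679 0.18% ± 0.311 (SD, n = 3) of the counts at A1678. G1702 had 2.50% ± 0.64 and C1704 0.245% ± 0.202 (SD, n = 3) of those at C1703. In the oxidized libraries of the MiSeq, U1677 had 3.67% ± 1.56 and A1679 0.534% ± 0.37 (SD, n = 2) of A1678, and U1803 and G1805 had 1.72% ± 0.523 and 1.37% ± 0.0618 (SD, n = 2) of U1804. Both sides of U1804 were thus closer to each other than in the NextSeq libraries, and neither oxidized MiSeq library had a count at G1702 or C1704. Over 39 annotated 18S sites the NextSeq median was 0.353% for the upstream and 0.212% for the downstream neighbour, and the upstream neighbours of A1678, C1703 and U1804 lay above the first of these. C1704 lay above the second, and A1679 and G1805 below it.

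**Figure D4:**
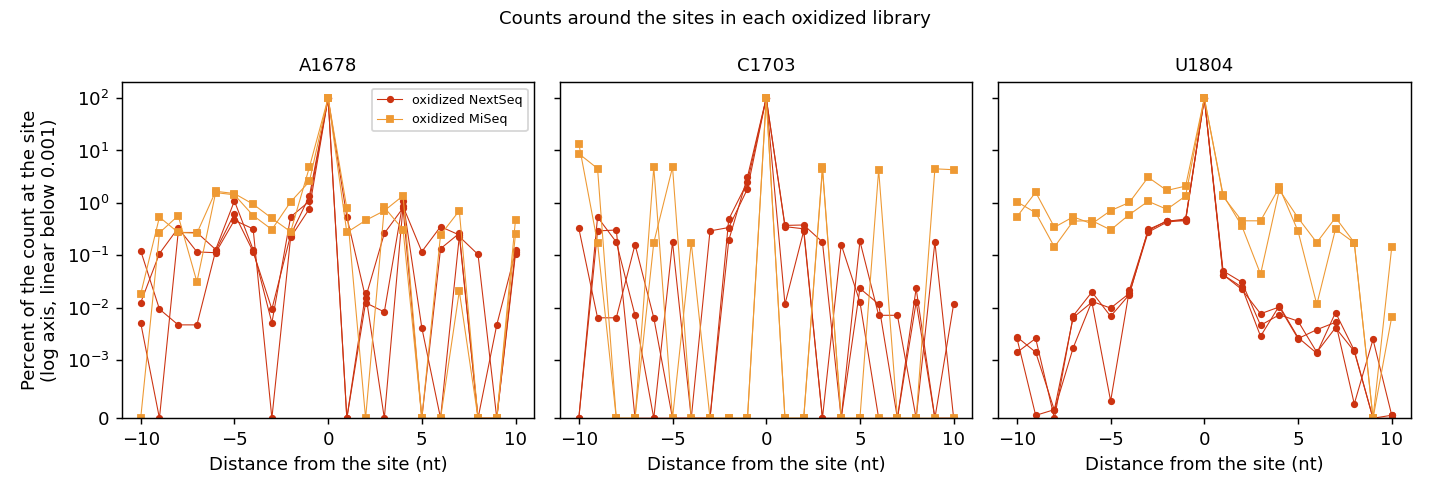
Counts within 10 bases of A1678, C1703 and U1804, as percent of the count at the site (log axis, linear below 0.001), in each NextSeq (red) and MiSeq (orange) oxidized library against the distance from the site in bases. At U1804 the 3 NextSeq libraries lie close together at the bases nearest the site and spread apart further out. Near the site they fall more slowly on the upstream than on the downstream side.

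At the 226 unannotated positions the oxidized NextSeq libraries were nearly empty. The median count over these positions was 6, 50 and 6 in the oxidized and 3372, 3923 and 6239 in the control libraries, by replicate. The region held 74, 79 and 75 positions without a count in oxidized replicates 1, 2 and 3, of which 35 were without a count in all 3, whereas no position was empty in all 3 control libraries. These numbers were not set beside those of all positions, so they do not mark the region as emptier than the rest. Taken as independent events, a count of 0 allows up to 3 counts, which was 0.219 to 0.244 CPM in these oxidized libraries. With counts in steps of 50 that limit is too low. The longest empty runs were 1773 to 1779, 1853 to 1858 and 1714 to 1718. The controls had counts there, 4266 to 19793, 1832 to 5356 and 2581 to 35282 per library.

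Lower in NextSeq oxidized libraries by the test were 25 of 230 positions (10.9%), all unannotated, against 18.8% of all positions. They had at most 20 counts summed over the 3 oxidized libraries and 15 of them had none, so their fitted fold changes are not measurements of size. Without control replicate 3 the number was 41, and without control replicate 1 or 2 it was 1 and 3. The run from 1853 to 1858 was also empty in both oxidized MiSeq libraries, where the controls had 0 and 54 counts. Around 1773 to 1779, both oxidized MiSeq libraries were empty from 1766 to 1777 and from 1779 to 1783.

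Among the landmarks of the region, the conserved adenosines of the decoding centre, A1824 and A1825, were found by the letters GUCGUAAC that follow them, which occur 1 time in 18S. A1825 had 12533, 13216 and 14727 control counts, by replicate, and 104, 100 and 104 oxidized counts. A1824 had 5540, 6743 and 11868 against 54, 104 and 4. Neither was higher in NextSeq oxidized libraries. In the MiSeq libraries A1824 had 102 and 50 oxidized and 766 and 698 control counts and passed the test as higher (log2 fold change 1.60, edgeR quasi-likelihood adjusted P = 0.0472), while A1825 had no oxidized count. With library totals alone A1824 did not pass.

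The adenosines dimethylated at the base, A1850 and A1851, lie in the letters GUGAACC, which also occur 1 time in 18S. A1850 had 2, 256 and 3340 and A1851 210, 112 and 877 counts in control replicates 1, 2 and 3, and both had 0 in all 3 oxidized libraries. The 18 bases from C1852 to the end held 0.99%, 1.04% and 1.35% of the unannotated counts of the region in the NextSeq controls while being 7.96% of its unannotated positions. Of the 5 positions with fewest NextSeq control counts, 3 were C1853, G1855 and G1858. The first base of the region, A1640, had 59, 56 and 4815 counts, by replicate, in the NextSeq controls and the last, A1869, had 20158, 25036 and 13462, more than any other of the final 18 bases in each of these libraries. Both were without a count in the oxidized libraries.

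In NextSeq control replicates 1 and 2 and in the MiSeq controls, ends were most frequent around U1804. A1801, G1805 and C1807 had 479641, 549630 and 558887 counts in control replicate 1 and 538583, 610852 and 619289 in control replicate 2, but 23790, 22737 and 18704 in control replicate 3. With U1659 and C1660 they had the most counts of the region in control replicates 1 and 2 and in the sum of the 3 NextSeq controls. Control replicate 3 had most at G1784, with 48505, and the MiSeq controls at A1800, with 55868, and A1801, with 41657. The 20 bases from 1792 to 1811 held 54.9% and 54.2% of the unannotated counts of the region in control replicates 1 and 2. In control replicate 3 the highest such window, 1805 to 1824, held 18.7%. In the MiSeq controls the window from 1789 to 1808 held 70.1% and 69.0%.

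Control replicate 3 also differed in the bases at which fragments ended. Ends at A or U made up 32.5%, 32.5% and 56.1% of the unannotated counts of the region in NextSeq control replicates 1, 2 and 3, while they are 43.8% of its unannotated positions. In the MiSeq controls the share was 51.2% and 50.1%, and in the oxidized libraries of both experiments 58.1% to 60.4%. These shares are weighted by counts. A1801, C1802 and U1803 thus weigh heavily in the NextSeq oxidized libraries, and A1801, G1805 and C1807 in NextSeq control replicates 1 and 2. Across the 226 positions, Spearman's rho between control replicates 1 and 2 was 0.99 and that of either with control replicate 3 was 0.51, a description over positions that share a library and are not independent. A1731 is an example, with 24509, 27931 and 1808 counts in control replicates 1, 2 and 3. G1784 is the opposite, with 2679, 2437 and 48505. G1784 had 1668, 1949 and 1627 counts in the oxidized libraries, more in sum than any unannotated position other than A1801, C1802 and U1803, and did not pass the test.

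**Figure D5:**
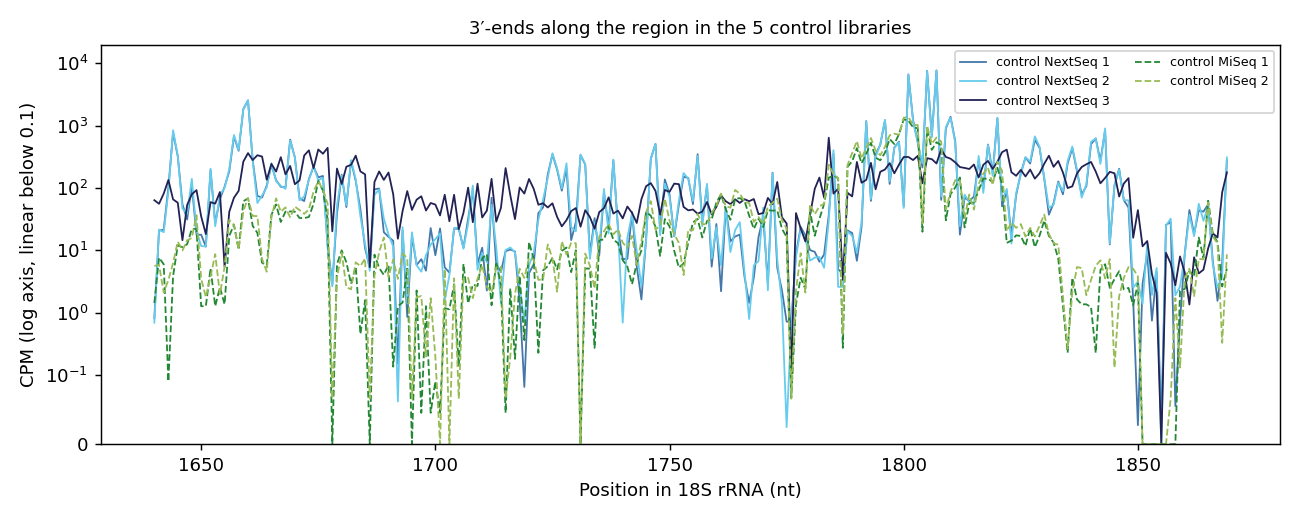
CPM per base of the region (log axis, linear below 0.1) in the 3 NextSeq (solid) and 2 MiSeq (dashed) control libraries. NextSeq control replicates 1 and 2 overlie each other with sharp peaks at A1801, G1805 and C1807, control replicate 3 is flatter, and the MiSeq controls have a broad rise between 1789 and 1808.

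In the MiSeq experiment 50 of 226 positions (22.1%) were higher in oxidized libraries, against 10.6% of all 6661 positions, and 82 (36.3%) were lower, against 51.6%. Leaving out either MiSeq control library lowered these numbers to 3 and 0. A log2 fold change above 7 in addition was reached by 6 positions, or 2.65% of those tested in the region against 2.36% of all. At 58 positions (25.7%, against 14.4% of all) both oxidized libraries had a higher CPM than both controls. The oxidized libraries held few counts at most of the positions called. Of the 47 unannotated positions called higher, 37 had under 10 steps of 50 counts summed over the oxidized libraries. Their control counts, summed over both libraries, ran from 0 to 10745.

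The 3 unannotated positions with a log2 fold change above 7 show how few counts stood behind it. A1731 had 50 and 50 oxidized counts, or 1 step of 50 in each library, and none in either MiSeq control. The exact 95% counting interval of its ratio of summed shares began at 678. C1852 had 8 and 6 oxidized counts and none in the controls, and its interval began at 84.5. A1715 had 57 and 2 oxidized and 2 and 2 control counts, a ratio of summed shares of 376 with an exact 95% counting interval from 139 to 1425. In the NextSeq libraries A1731 and C1852 had log2 fold changes of -1.50 and 0.73 that did not pass, and A1715 had no oxidized count.

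The next 7 by log2 fold change, between 5.30 and 5.82, were G1837, G1847, A1834, C1682, U1839, U1840 and G1849. Except for C1682 they lie between the decoding adenosines and the dimethylated pair. G1837 had 204 and 262 oxidized and 72 and 164 control counts, and G1847 had 202 and 202 against 104 and 110. None of the 7 was higher in NextSeq oxidized libraries by the test. Between the experiments, 4 positions of the region were called higher in both, A1678, C1703, U1804 and A1831, which is 40% of the NextSeq and 8% of the MiSeq calls. Of these, A1831 alone is unannotated. The overlap was not set beside that of all positions, so it is no result about the region.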

How the data were processed

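Per the labels and methods, the authors trimmed reads with cutadapt 1.12, collapsed PCR duplicates, aligned with TopHat2 2.1.1 to hg19 (GRCh37) and converted with SAMtools 0.1.19. For each of 10 libraries they deposited, without normalization, a whole-number count per base of 18S and 28S, assigned from sense alignments by their 3′-end and, as its steps of 50 and its totals show, not a number of reads. Other lines (up to 153 a file) held 0 counts. The authors' DESeq2 tables hold their fold changes and p-values and were not used. Annotated sites come from the study's supplement.

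edgeR 4.0.16 (R 4.3.3) fitted the NextSeq and MiSeq libraries separately, with TMM, positions with at least 1 count, its quasi-likelihood F test, and P-values adjusted after Benjamini and Hochberg over 18S and 28S. Standard errors are the log2 fold change over the root of F. The code was tested on simulated data. CPM use totals of 18S and 28S. SnoRNA pairing was searched in GRCh37 with GENCODE genes. Alternatives were DESeq2 1.42.0, other scalings and filters, counts divided by 50, a replicate block, passage as covariate and leaving out each library.

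The region, its landmarks and lists were chosen with earlier results of these data known. Named positions are the annotated sites, their neighbours up to 3 bases away, unannotated positions called higher (at most 10 per experiment), the 10 with most oxidized and the 5 with most and 5 with fewest control NextSeq counts, landmarks, and the 3 longest runs without oxidized NextSeq counts. A1731, A1824 and G1784 were in part described beyond this rule, after their values were seen.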

Additional observations from a re-analysis of the deposited data

Results flagged for a closer look

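The log2 fold change of A1678, MiSeq minus NextSeq, was 6.34, and that of U1804 was -3.76. Both differ between the experiments by the test of the difference itself in edgeR's quasi-likelihood fit over 10 libraries. A1678 lost its call without any 1 of 9 of the 10 libraries, and U1804 without any 1 of 5. Both lost it with counts divided by 50 (edgeR adjusted P = 0.143 and 0.0591) and with the replicate block (edgeR adjusted P = 0.23 and 0.319). U1804 also lost it with library totals only, at -0.70. The MiSeq value of A1678 leans on control counts of 0 and 2. In the region as a whole, 31 positions differed by that test, 8.26% of its positions with a higher and 5.22% with a lower value in the MiSeq experiment, against 4.55% and 3.65% of all positions. This number fell to 0 without either MiSeq control library. The experiments differ in sequencer, passage and amount of RNA together, and the part of each was not tested.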

How the results depend on the processing

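A1678, C1703 and U1804 kept their direction and their call under all 16 alternatives for the NextSeq libraries, with log2 fold changes of 8.59 to 13.88, 7.28 to 12.50 and 10.58 to 14.89. In the MiSeq libraries they kept both under 12 of 13 alternatives and lost the call with the replicate block. The count of positions higher in NextSeq oxidized libraries, 10, became 16 with DESeq2's Wald test, 4 with library totals only, 4 with counts divided by 50, 5 with the totals of unannotated positions as library size (chosen after seeing the data) and 4 to 21 with each library left out. The count of lower positions, 25, became 58, 139, 0 and 1 under the same 4 alternatives, 41 with passage as covariate and 1 to 41 with each library left out. Behind the 0 with counts divided by 50, 54 positions had an unadjusted p under 0.05. In the MiSeq libraries the counts of 50 and 82 became 3 to 72 and 0 to 94 with each library left out, and the lower count 26 with counts divided by 50. Where the lower count was 0, 9 and 11 positions had an unadjusted p under 0.05, and DESeq2's Wald test called 88 lower. The count of positions that differ between the experiments, 31, became 57 with library totals only, 75 with DESeq2's Wald test, 15 with counts divided by 50 and 0 to 46 with each library left out. Where it was 0, 48 and 50 positions had an unadjusted p under 0.05.

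The replicate numbers did not pair the libraries: the deviations of same-numbered libraries from their group means had correlations of 0.0269, -0.0142 and 0.0071 (NextSeq) and -0.0103 (MiSeq). With the replicate number as a block, 4 positions of the region were higher and 0 lower in NextSeq, 0 and 0 in MiSeq, and 0 differed between the experiments. At an unadjusted p under 0.05 these counts of 0 were 29 (NextSeq lower), 23 and 12 (MiSeq higher and lower) and 46 (difference), and DESeq2's Wald test without a block called 58, 59, 88 and 75. The difference in the region's share of counts, 25.8 percentage points in NextSeq and 3.12 in MiSeq, became 48.3 in NextSeq with 18S counts only, and 5.48 and 1.13 without known sites. With library totals only, log2 fold changes reversed at U1733 (-0.68), U1729 (-0.52), A1800 (-1.26) and A1831 (-1.39), and for MiSeq minus NextSeq at U1668 (1.12) and C1703 (3.15). C1703 also reversed with the replicate block (0.78) and without MiSeq control replicate 1 (6.41), its values with 1 library left out ranging from -1.65 to 6.41. The cause was not tested. U1803 kept its call under all 16 alternatives, C1802 under 9, U1729 and U1733 under 10 each, G1702 and A1800 under 7 each and A1831 under 5.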

Other observations

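Other bases of the region that are modified at the base, not the ribose, were looked up after the values were seen. A1832, which is methylated at N6, had 4152, 4341 and 16537 counts in NextSeq control and 150, 2 and 0 in oxidized replicates 1, 2 and 3. C1842, which is acetylated, had 19779, 19707 and 8995 in control and 100, 0 and 50 in oxidized replicates 1, 2 and 3. At neither did an oxidized library reach the CPM of a control library. A1832 had 588 and 395 counts in MiSeq control libraries, C1842 had 214 and 210, and the MiSeq oxidized libraries had 2 and 0 counts at A1832 and none at C1842.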
